A study of Mus musculus with 1600 samples.

Results

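The epidermal cells of the mouse hind limb at embryonic stage E15.5 were 25 of the 200 single cells of that stage, a share with an exact 95% Clopper-Pearson interval of 8.26 to 17.9%. They were chosen by their measured keratin level: cells with at least 1000 detected genes whose summed Krt5, Krt14 and Krt15 level reached 1000 CPM (a gene's count scaled to the cell's total count). They were set against 157 other E15.5 cells with a sum under 100 CPM, and 18 cells lay between the limits. The series holds 1600 single-cell libraries, of which the 480 of the count table used here cover E10.5, E12.5 and E15.5. All embryos were SCX-GFP transgenic C57BL/6 mice with no treatment given in the labels, the green fluorescent reporter named for the tendon gene Scx being carried by every group, and the hind limbs of siblings from 1 litter were pooled before the tissue was digested and cells were captured one by one on a microfluidic chip. The E15.5 cells are therefore 1 sample, and every difference below describes these libraries without a test.

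The epidermis is a layered epithelium. Its basal layer, held to the basement membrane by integrins and collagen XVII, divides and makes the keratin pair Krt5 and Krt14. Cells that leave it switch to Krt10 and Krt1, strengthen their desmosomes and later build the cornified envelope of the skin barrier.

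The values that chose the cells are given as a description. The summed keratin level of the epidermal cells had a median of 4217 CPM and a highest value of 15251 CPM in cell 362, while the other cells had a median of 16.8 CPM. Just inside the limit, cell 281 had 1117 CPM, and just outside it, cell 438 had 982 CPM. At the lower limit, the highest of the other cells, cell 360, had 99.4 CPM, and the lowest cell between the limits, cell 396, had 112 CPM. Cells are named by the number in their labels, and a library pool is the set of 40 cells that share an index. The 5 pools held 7, 5, 6, 3 and 4 epidermal cells, 1, 6, 6, 3 and 2 cells between the limits, and 32, 29, 28, 34 and 34 other cells. The same 40 cell barcodes recurred in all 5 pools, and 0 pairs of cells had identical counts.

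**Figure D1:**
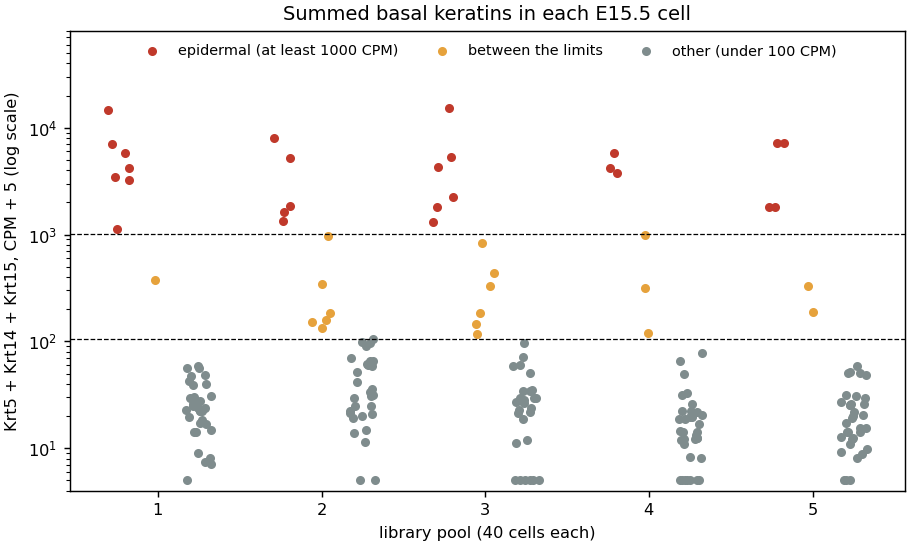
Summed Krt5, Krt14 and Krt15 level of each E15.5 cell (CPM + 5, log scale) by library pool, with each pool's epidermal cells left, cells between the limits in the middle and other cells right. Dashed lines mark the limits of 1000 and 100 CPM, and all 5 pools hold cells of the 3 kinds.

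Total counts per cell ran from 12666 to 566201 in the epidermal cells (median 268106) and from 9163 to 1185267 in the other cells (median 189821). A median of 4599 genes was detected in the epidermal cells and 4619 in the other cells. Summed counts of each group were turned into CPM, and 5 CPM was added before the log2 ratio of epidermal over other cells. A gene was past the fold when this ratio was at least 2 in size, which is 4-fold on that scale, and called when its direction was also the same in all 5 pools. Intervals are exact 95% Poisson or Clopper-Pearson intervals and cover counting error only, not the spread between cells. Over 11947 genes compared, 80 were called higher in epidermal cells (0.67%) and 580 lower (4.85%), the lower count being 921 without pool 2. Without agreement between pools, 228 were past the fold higher (1.91%) and 669 lower (5.6%). The pool rule was uneven between directions. A higher call needed an epidermal count in all 5 pools, of 3 to 7 epidermal cells each, while a lower call could be met by 0 epidermal counts. The median log2 ratio of all genes was -0.28, and -0.07 with TMM scaling, where 96 genes were called higher and 434 lower.

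The label was checked on genes the rule did not use. Of 7 epithelial genes (Cdh1, Epcam, Trp63, Itgb4, Perp, Dsp and Sfn), cell 448 had a count in 0, cells 321, 377 and 394 in 2, and the other 21 epidermal cells in 4 to 7. A count of these genes was also found in other cells, in 85 of the 157 for Perp, 66 for Sfn, 60 for Dsp and down to 6 for Trp63. A single count therefore does not set a cell apart, and the tally per cell is not given here for other cells. Within that limit the label fits most of the cells, and cell 448, with 80.6 CPM of Krt14, 1719 CPM of Krt15 and 8567 CPM of Col1a1, is epidermal by the rule alone. The summed level of 17 dermal and connective tissue genes per cell ran from 400 to 17832 CPM in epidermal cells (median 3840) and from 1137 to 64879 CPM in other cells (median 17714). Cells 291, 394 and 448 reached the lower quartile of the other cells, 10413 CPM, and without these 3 cells 79 genes were called higher and 684 lower.

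Genes that mark other cell types were concentrated in single epidermal cells. Cell 445 held 3264 CPM of Dct and 1875 CPM of Pmel, both melanocyte genes, beside 5499 CPM of Vim. Cell 329 held 1153 CPM of Sox10, a neural crest factor, and 2938 CPM of Vim. The muscle genes Ttn and Actc1 stood at 4895 and 7436 CPM in cell 321, and the cartilage collagen Col2a1 at 8075 CPM in cell 322, which also had the highest Perp level. Cell 362 carried 98.7% of the epidermal counts of Krt8, a keratin of simple epithelia, with 8633 CPM, and also had 16677 CPM of Krt19 and 3043 CPM of Krt4. The summed level of the 8 listed endothelial genes per cell ran from 0 to 537 CPM in epidermal cells (median 0) and from 0 to 4281 CPM in other cells (median 5.33). In epidermal cells Cldn5 had 0 counts, where 3 counts over the group would be 0.447 CPM, and Cdh5 stood at 1.04 CPM, while Egfl7 stood at 10.4 CPM and Tek reached 510 CPM in cell 448. The part of such cells, or of 2 cells caught together, in the epidermal profile was not tested.

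The 3 keratins of the rule, whose sum chose the cells, were not in fixed proportion. Over these 25 cells, on the log2 scale, Krt5 and Krt14 had a Pearson correlation of 0.15 and a Spearman correlation of 0.37. These values were -0.12 and 0.13 for Krt14 and Krt15, and 0.20 and 0.39 for Krt5 and Krt15. Krt14 (GRCm38, chr11:100203162-100207548, minus strand) ran from 19.0 to 6439 CPM in epidermal cells, with a median of 2029, against 0 to 92.0 CPM in other cells, with a median of 7.09. Krt5 (chr15:101707070-101712898, minus strand) had a lowest level of 0, a median of 630 and a highest of 5656 CPM in epidermal cells, and 0, 1.51 and 93.4 CPM in other cells. For Krt15 (chr11:100131758-100135928, minus strand) these values were 0, 685 and 11999 CPM in epidermal cells and 0, 0 and 58.1 CPM in other cells. Krt14 exceeded every other cell in 23 of the 25 epidermal cells, Krt15 in 22 and Krt5 in 21. The exceptions differ in kind, since cell 281 had no Krt15 count, cell 362 had 19.0 CPM of Krt14 beside 11999 CPM of Krt15, and cells 377 and 448 had no Krt5 count. Krt14 counts were also found in 117 of the 157 other cells, at 9.38 CPM in all, and the other cells held 1.61 to 2.36% of each pool's Krt14 counts.

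The desmosome, the junction that ties keratin filaments of neighbouring cells together, was higher as a group. Of 12 listed genes 10 were compared, 10 were past the fold higher and 6 were called, with a median log2 ratio of 4.27 against -0.28 over all genes. Perp, a tetraspan membrane protein of the desmosome, ran from 0 to 4127 CPM in epidermal cells (median 834) and from 0 to 577.5 CPM in other cells (median 2.88). Its summed level was 1384 CPM (interval 1356 to 1412) in epidermal cells and 12.3 CPM (11.2 to 13.5) in other cells, a log2 ratio of 6.33. Perp lay above every other cell in 14 epidermal cells, and the ranges overlapped in the rest. The plaque protein desmoplakin, Dsp, ran from 0 to 2257 CPM (median 172) in epidermal cells and from 0 to 349 CPM (median 0) in other cells, a log2 ratio of 5.36. Epidermal cells without a Dsp count numbered 6, so this gene was not found in every cell at this depth. The plakophilins Pkp3 and Pkp1 had ratios of 4.41 and 4.23, and the cadherins Dsg2 and Dsg3 had 4.00 and 2.91. Dsc3 (4.49), Ppl (4.31), Evpl (2.51) and Jup (2.32) were past the fold without agreement of all pools.

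Epithelial adhesion genes showed the same direction. Of 22 listed genes 14 were compared, 8 were past the fold higher and 4 were called, and 0 were past it lower. E-cadherin, Cdh1, ran from 0 to 1267 CPM (median 56.5) in epidermal cells and from 0 to 313 CPM (median 0) in other cells, a log2 ratio of 4.64, with counts in 17 of 25 epidermal cells and 13 of 157 other cells. Epcam, an epithelial surface adhesion protein, had a summed level of 75.8 CPM in epidermal cells and 1.48 CPM in other cells. Esrp1, a splicing factor of epithelial cells, stood at 128 CPM in epidermal cells and 0.25 CPM in other cells. Esrp1 was no longer called when all 175 cells outside the epidermal group were used.

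Among basal keratinocyte genes other than the keratins, 18 of 20 were compared, 10 were past the fold higher and 9 were called. Trp63, which encodes the p63 transcription factor that sets epidermal identity, had a count in 21 of 25 epidermal cells (84%, interval 63.9 to 95.5%) and 6 of 157 other cells (3.82%, interval 1.42 to 8.13%). Thinned to 90000 counts per cell, with 4 epidermal and 29 other cells too shallow to enter, these shares were 19 of 21 and 2 of 128. Its level ran from 0 to 496 CPM (median 62.5) in epidermal cells and from 0 to 48.5 CPM (median 0) in other cells, with a log2 ratio of 5.03. Sfn, the 14-3-3 protein sigma, had a median of 384 CPM in epidermal cells and 0 CPM in other cells, a log2 ratio of 5.05. Of the genes that anchor basal cells, Col17a1 (3.98) and Itga3 (2.55) were called higher. Not past the fold were the integrins Itgb1 and Itga6, with log2 ratios of -0.72 and -0.06.

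**Figure D2:**
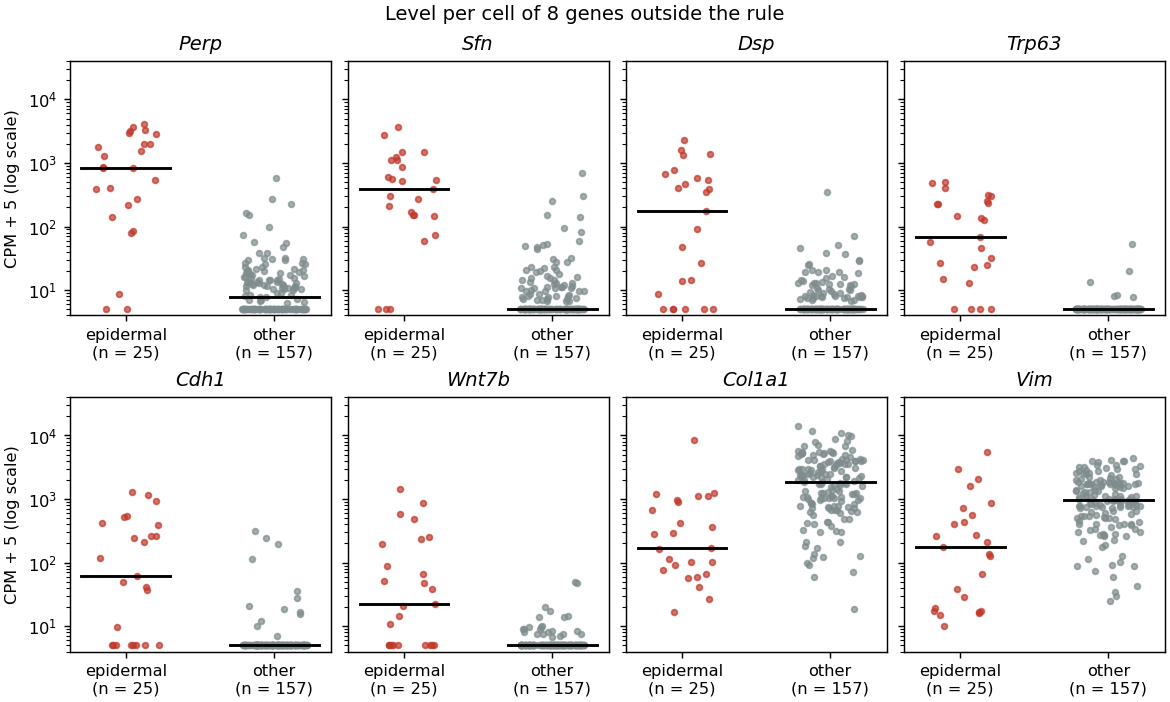
Level of 8 genes outside the rule in each cell (CPM + 5, log scale), epidermal cells left and other cells right; each point is a cell and the bar is the median. Perp, Sfn, Dsp, Trp63, Cdh1 and Wnt7b lie higher in epidermal cells and Col1a1 and Vim lower, with ranges that overlap in each panel.

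Epidermal transcription factors ranged from genes with few counts outside the epidermal cells to genes at like levels in both groups. Of 23 listed, 17 were compared, 9 were past the fold higher and 5 were called. The called genes were Gata3 (105 CPM in epidermal and 4.57 CPM in other cells), Tcfap2a (55.2 and 5.36 CPM), Tcfap2c (27.3 and 0.14 CPM), Grhl2 (20.7 and 1.04 CPM) and Satb1 (77.1 and 15.4 CPM). Grhl2, at a log2 ratio of 2.09, was short of the fold without its highest cell (1.88), without pool 4 (1.51), without pool 5 (1.86) and against all cells outside (1.42). Klf5, Grhl3 and Zfp750, which act in keratinocyte differentiation, were past the fold at log2 ratios of 3.27, 2.91 and 2.15 without agreement of all pools. Nfib was detected in all 25 epidermal and all 157 other cells, at 1431 CPM in epidermal and 2178 CPM in other cells.

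Signalling genes moved less as a group, with a median log2 ratio of 0.71 over 24 of 35 listed genes, 2 called higher and 2 called lower. The called Wnt ligands were Wnt7b, at 187 CPM in epidermal and 0.79 CPM in other cells, and Wnt3, at 59.6 and 0.11 CPM. Wnt7b had counts in 16 of 25 epidermal cells and 23 of 157 other cells, and its highest level was 1446 CPM in epidermal and 45.0 CPM in other cells. Without pool 4, 1 of these signalling genes was called higher. Wnt6 was past the fold (4.33) without agreement of all pools. The growth factor gene Hbegf and the semaphorin gene Sema3c were lower, at 0.30 CPM in epidermal against 30.0 CPM in other cells and at 16.2 against 80.1 CPM, and Sema3c had a log2 ratio of -1.77 with TMM scaling.

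Other genes with the largest called ratios were Fgfbp1, a carrier of fibroblast growth factors (320 CPM in epidermal and 1.53 CPM in other cells, log2 ratio 5.64), and Krt17, a keratin of activated and appendage epidermis (309 and 1.59 CPM, 5.57). They also included BC100530 (206 and 1.29 CPM, 5.07) and Stfa3 (158 and 0.55 CPM, 4.87), members of the stefin family of protease inhibitors. The near-identical stefin copies may share reads, so both values are uncertain, and so may the close keratin paralogs Krt14 and Krt17. Stfa3 had 55.9% of its epidermal counts in 1 cell. Of 10 keratins of simple epithelia and periderm, 5 were compared, 5 were past the fold higher and Krt17 was the 1 called. Krt17 was uneven among the epidermal cells, with counts in 14 of 25, a median of 3.73 CPM and a highest level of 3974 CPM.

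Connective tissue genes were lower in epidermal cells. Of 17 dermal genes compared, 9 were called lower and 0 higher, with a median log2 ratio of -2.11. Col1a1, the main collagen I chain, ran from 11.6 to 8567 CPM (median 168) in epidermal cells and from 14.0 to 14110 CPM (median 1857) in other cells. The ranges overlapped almost wholly, the log2 ratio of summed levels was -2.76, and it was -1.84 when each cell weighed the same. Col1a2 (-2.84), Thy1 (-3.03) and the limb mesenchyme homeobox gene Prrx1 (-2.53) were called lower, and the intermediate filament gene Vim, at 569.1 CPM in epidermal and 1390 CPM in other cells (-1.28), was not. With epidermal cells taken from 2000 CPM, Vim was called lower at -3.22. Tnmd, a tendon membrane protein gene, had the largest difference and stood at 2.08 CPM in epidermal against 235 CPM in other cells (-5.08), and Scx, the tendon transcription factor, at 12.7 against 274 CPM (-3.98). The further largest were Fam38b, Gng11, Mmp11, C1qtnf6, Ogn, Dab2, Nat15, Robo2, Fam46a, Gnb4, Thbs2, Angptl2 and Sdc3, with ratios of -4.25 (Fam38b) to -3.58 (Sdc3). Endothelial genes were called lower in 4 of 7 compared, Kdr among them (-3.55), a count that was 7 without pool 3. The macrophage genes Tyrobp (-2.82) and Fcer1g (-2.57) were called lower too, with counts in only 27 and 17 of the 157 other cells. With 20 CPM added in place of 5, Tyrobp and Fcer1g were at -1.37 and -1.18, short of the fold.

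**Figure D3:**
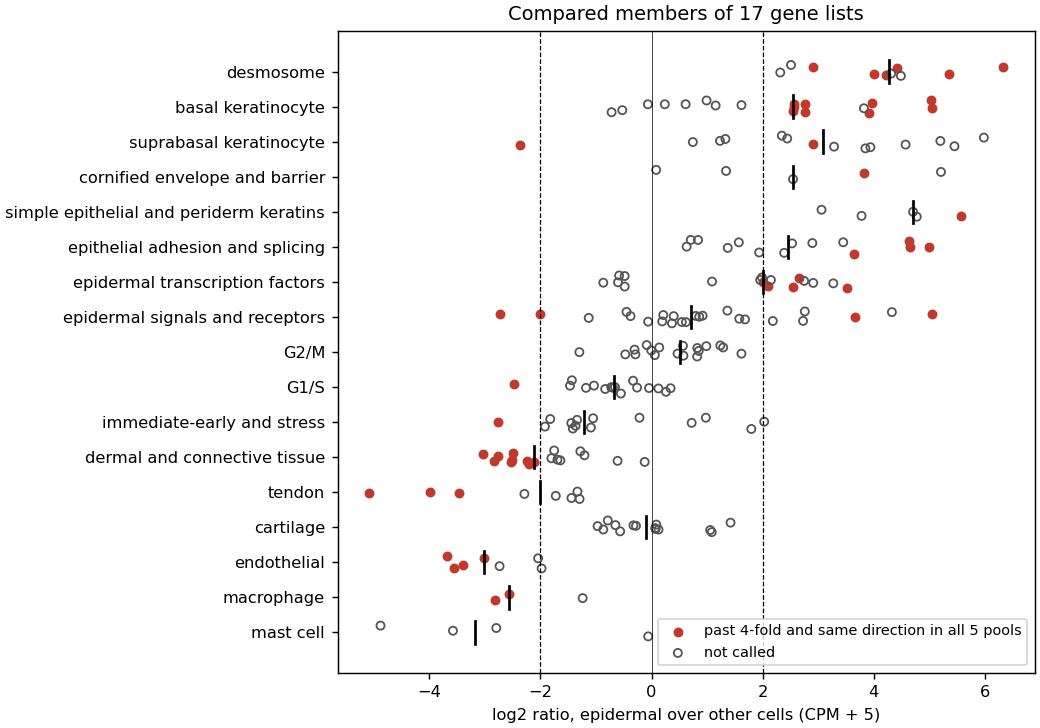
Log2 ratio of epidermal over other cells (CPM + 5) for each compared member of 17 gene lists; filled points are called, open points are not, black bars are list medians and dashed lines mark a ratio of 2 in size. Desmosome genes sit right of the upper line and 9 dermal genes left of the lower one.

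Division and stress genes did not follow the epithelial lists. Of 18 G2/M genes compared, 0 were past the fold in either direction, and their summed level per cell had a median of 2862 CPM in epidermal cells and 880 CPM in other cells, with ranges of 64.2 to 12799 and 27.2 to 22427 CPM. Of 14 immediate-early and stress genes, Hspa1a was past the fold higher (2.03) and the phosphatase gene Dusp1 was called lower (-2.76), and the summed level per cell had a median of 2016 CPM in epidermal cells and 5379 CPM in other cells. Ccne2 was the G1/S gene called lower, at -2.48, of 16 compared, and fell short of the fold when each cell weighed the same (-1.94) and without pool 5 (-1.92). Of the cartilage, hair placode and Merkel cell lists, 14, 5 and 1 genes were compared and 0 were called.

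Differentiation genes of the layers above the basal one were higher in sum but differed between pools. Of 16 suprabasal genes 14 were compared, 10 were past the fold higher and 1, Serpinb5, was called. Leaving out pool 3 or pool 4 gave 2 called genes, and leaving out pool 5 gave 3. Krtdap, a secreted keratinocyte differentiation protein (chr7:30787896-30791097, plus strand), ran from 0 to 18084 CPM (median 256) in epidermal cells and from 0 to 1164 CPM (median 6.81) in other cells. Summed, it stood at 1523 CPM in epidermal and 19.1 CPM in other cells, a log2 ratio of 5.99. Krt10 (chr11:99385254-99389364, minus strand) ran from 0 to 2711 CPM (median 19.0) in epidermal cells and from 0 to 343 CPM (median 3.33) in other cells, with summed levels of 495 and 27.5 CPM. Epidermal cells of pools 1 to 5 held 580.6, 1198, 71.1, 10.7 and 0 CPM of Krt10, while the other cells of the same pools held 1.18, 29.8, 14.3, 66.8 and 34.6 CPM. Epidermal Krt10 was thus lower than that of the other cells in pools 4 and 5. Klf4, a factor of late epidermal differentiation that other tissues also express, was called lower, at 67.8 CPM in epidermal and 370 CPM in other cells (-2.36).

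Genes of the cornified envelope were mostly not detected. Of 19 such genes measured, 10 had 0 counts in the epidermal cells, Ivl, Cnfn, Abca12 and Spink5 among them, which allows up to 0.447 CPM. Lor, the main cornified envelope protein, had counts in 2 epidermal cells, with 367 CPM in cell 295. It also had counts in 5 other cells, and its log2 ratio of 1.34 was short of the fold. The gap junction gene Gjb2 was the 1 called gene of the 5 compared, at 84.0 CPM in epidermal and 1.26 CPM in other cells. Gjb6 (5.21) and Cldn1 (2.55) were past the fold without agreement of all pools.

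The promoters of Krtdap, Krt10 and Krt5 are shown because the first pair moved together among epidermal cells while Krt5 is a keratin of the basal layer. Krt5 did not run opposite to Krt10 in these cells, with a Pearson correlation of 0.32 and a Spearman correlation of 0.31. Each is 300 bases, 250 before to 50 after the start of transcription, from RefSeq on GRCm38.p6. Krtdap lies at chr7:30787655-30787954 (plus strand), Krt10 at chr11:99389315-99389614 (minus strand) and Krt5 at chr15:101712856-101713155 (minus strand). Capitals mark matches to the AP-1 motif TGANTCA, the AP-2 motif GCCNNNGGC or the TATA box TATAAA, searched on both strands.
Krtdap: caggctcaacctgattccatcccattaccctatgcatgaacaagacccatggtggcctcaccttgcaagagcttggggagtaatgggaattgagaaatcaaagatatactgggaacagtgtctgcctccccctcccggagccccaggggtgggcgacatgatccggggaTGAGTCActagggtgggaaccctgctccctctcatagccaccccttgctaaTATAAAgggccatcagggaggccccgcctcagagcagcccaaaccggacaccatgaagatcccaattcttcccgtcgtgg
Krt10: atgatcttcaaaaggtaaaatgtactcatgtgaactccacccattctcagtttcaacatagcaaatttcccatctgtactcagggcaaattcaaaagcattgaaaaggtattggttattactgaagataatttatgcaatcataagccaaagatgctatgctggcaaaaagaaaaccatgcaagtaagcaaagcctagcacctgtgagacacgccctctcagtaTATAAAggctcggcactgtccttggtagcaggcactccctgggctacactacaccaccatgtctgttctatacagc
Krt5: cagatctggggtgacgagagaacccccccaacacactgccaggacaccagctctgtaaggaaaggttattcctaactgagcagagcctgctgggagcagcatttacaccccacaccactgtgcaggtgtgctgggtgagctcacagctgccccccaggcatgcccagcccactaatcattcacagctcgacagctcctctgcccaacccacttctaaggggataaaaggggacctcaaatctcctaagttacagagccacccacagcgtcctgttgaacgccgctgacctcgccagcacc
Krtdap held an AP-1 match starting at -81 and a TATA match at -30, Krt10 a TATA match at -26, and Krt5 none of the 3. Among 27025 promoters of this length, 7.93% held the AP-1 motif, 16.5% the AP-2 motif and 14.2% the TATA box. Among the 8469 promoters of compared genes these shares were 4.35%, 26.0% and 6.73%. Of the 80 genes called higher, 50 had a promoter in the table, and 6, 12 and 5 of them (12%, 24% and 10%) held the AP-1, AP-2 and TATA letters. A match describes these letters and is not a binding site.

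Within the epidermal cells, Krt10 and Krtdap set apart 8 cells with a summed level of at least 1000 CPM (high), 11 cells under 100 CPM (low) and 6 cells between. These are ranges cut from a continuous level, with 4 epidermal cells between 500 and 1500 CPM. All 8 high cells came from pools 1 and 2, with 5 and 3 cells, whereas the low cells came from pools 1 to 5, with 1, 1, 3, 2 and 4 cells. Library pool and differentiation state cannot be told apart in most of this comparison. The low range also held cells 291, 394 and 448, high in dermal genes. Cells 329, 362 and 445, named above for genes of other cell types or of simple epithelia, were low cells too. Cell 322, named above for Col2a1, was a high cell. The part of these cells in the differences was not tested. Median total counts were close, at 274842 in high and 255191 in low cells. Over the 25 cells Krt10 and Krtdap had a Pearson correlation of 0.73 and a Spearman correlation of 0.70 on the log2 scale, and Krt10 and Krt1 0.80 and 0.64. Krt10 had 0.10 and 0.04 with Krt14, 0.32 and 0.31 with Krt5 and -0.51 and -0.33 with Krt15, and the cells share 5 pools and unequal depth.

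**Figure D4:**
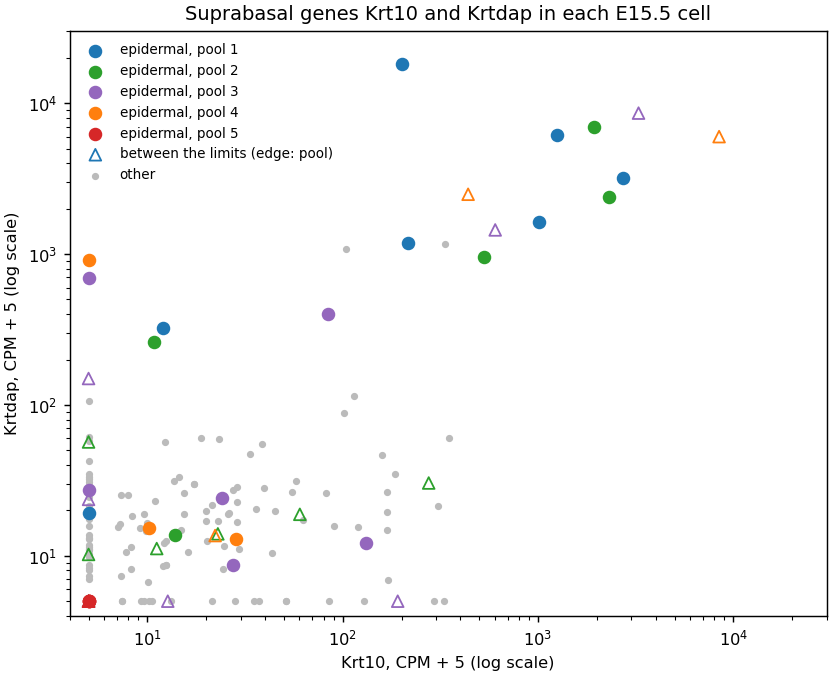
Krt10 against Krtdap in each E15.5 cell (CPM + 5, log scales); filled points are epidermal cells coloured by pool, triangles are cells between the limits and grey points are other cells. The 8 high epidermal cells are of pools 1 and 2, the 4 epidermal cells of pool 5 lie on each other at 0 of both genes, and 4 triangles of pools 3 and 4 lie among the high cells.

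Of 8414 genes compared within the epidermal cells, 747 were past the fold higher in high cells (8.88%) and 1089 lower (12.9%), the lower share being 25.3% (1846 of 7310 genes) without pool 2. Of 12 suprabasal genes compared, 10 were higher in high cells, Krt10 and Krtdap of the split among them, and 0 were lower. The median log2 ratio of this list was 4.42. The cartilage list had 6 of 8 higher and 0 lower, with a median of 4.69. For each of those 6 genes, 1 cell held 61.8 to 99.7% of the high-cell counts. In the skeletal muscle list 2 of 3 were higher, Actc1 and Mylpf, with 91.7 and 97.9% of these counts in 1 cell. Ly6d, a surface protein of stratified epithelium, ran from 0 to 2924 CPM (median 423) in high cells and was at 0 counts in all 11 low cells, so that its summed level of 612.6 CPM was at least 532-fold higher than the 3 counts that 0 allows. Dmkn, the secreted protein dermokine, had summed levels of 651 CPM in high and 5.76 CPM in low cells, and Dsg1a, a desmosomal cadherin of differentiating layers, 367 and 0.77 CPM. With the cells split on Krt10 alone, the log2 ratio of Dmkn was 1.28 in place of 5.93, no longer past the fold.

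Desmosome genes differed in the same direction, 5 of 10 past the fold higher in high cells and 0 lower. Perp ran from 1520 to 4127 CPM (median 3031) in the 8 high cells and from 0 to 2909 CPM (median 388) in the 11 low cells, a log2 ratio of 2.51. Inside pool 1 it stood at 2740 CPM in high cells and 3.57 CPM in the 1 low cell, and inside pool 2 at 3172 and 402 CPM. These low cells were cell 291, high in dermal genes, and cell 329, named above for Sox10 and Vim. The desmocollin gene Dsc3 (336 CPM in high and 0.77 CPM in low cells) and periplakin, Ppl (314 and 0.38 CPM), had the largest ratios of this list, and that of Dsc3 was 1.56 in place of 5.89 with the split on Krt10 alone. Dsp reached the fold narrowly, at a log2 ratio of 2.05, and was at 1.81 without the 3 epidermal cells high in dermal genes.

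Some genes that bind basal cells to the basement membrane were lower in high cells. Of 18 basal genes 8 were past the fold lower and 0 higher. The ratios of Col7a1 (1.61), Lama3 (1.48), Sfn (1.35) and Ptprf (0.34) had the other sign and were short of the fold. Col17a1 had 0 counts in all 8 high cells, against counts in 7 of 11 low cells with a highest level of 446 CPM, and was at least 92.1-fold lower by summed level. Lama5, a laminin chain, also had 0 counts in high cells, against 96.4 CPM in low cells, but 76.1% of those counts came from 1 low cell. Itga3, Itga6, Dst, Fras1 and Frem2 were also lower in high cells, with 81.8% of the low-cell counts of Itga6 in 1 cell. Without the 3 epidermal cells high in dermal genes, which leaves 8 low cells, the counts were 10 of 12 higher for the suprabasal list, 4 of 10 higher for the desmosome list and 8 of 18 lower for the basal list.

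The basal keratins themselves were not past the fold between the ranges. Every cell of both ranges had passed the limit of 1000 CPM on their sum, so the rule itself limited how far they could differ. Krt14 ran from 98.0 to 6439 CPM (median 2610) in high cells and from 19.0 to 5001 CPM (median 1414) in low cells, a log2 ratio of 0.11 with ranges that overlapped almost wholly. Krt5 stood at a log2 ratio of 1.48 and Krt15 at -1.13, neither past the fold, and Trp63 stood at 111 CPM in high and 228 CPM in low cells. Signals differed in both directions: the Notch ligand gene Jag1 had 179 CPM in high cells and 0 counts in low cells, whereas Wnt6 (17.9 CPM in high and 292 CPM in low cells), Wnt3 (3.49 and 131 CPM) and the growth factor gene Pdgfa (17.0 and 342 CPM) were lower. Of the 19 signalling genes compared, 3 were higher and 7 lower.

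The remaining genes named by size were Col2a1, Col9a1 and Col11a1, higher in high cells with 84.9 to 90.4% of the counts in 1 cell and a ratio of 1.34 for Col11a1 without pool 2, and 10 genes lower in high cells. Smarca2, a chromatin remodelling ATPase, stood at 0.87 CPM in high and 404 CPM in low cells, and Sostdc1, a secreted inhibitor of BMP and WNT signals, at 0 counts in 8 high cells and counts in 9 of 11 low cells. The log2 ratio of Sostdc1 turned to 0.33 when the cells were split at the median instead, and those of Etl4 (-1.25), Gjb6 (-0.95) and Arl2 (-1.83) fell short of the fold. Gjb6, a connexin, was at 0.44 CPM in high and 177 CPM in low cells, and Ube2f, Etl4, Tbc1d5, Arl2, Plxnb1, Nuak1 and Magi3 had log2 ratios of -5.51 (Ube2f) to -4.82 (Magi3). Not all of these 10 genes differed inside pools 1 and 2, which hold 1 low cell each, cells 291 and 329. Ube2f, Etl4, Tbc1d5 and Nuak1 were higher in the low cell of both pools. Smarca2 and Sostdc1 were so in pool 1 alone, Plxnb1 and Magi3 in pool 2 alone, and Gjb6 and Arl2 in neither. In the low cell of pool 1, 1 count was 3.57 CPM. Etl4 stood there at 3.57, Ube2f at 7.13 and Nuak1 at 10.7 CPM, so these 3 values are near the floor. The dermal list moved with the split, with per-cell sums of 400 to 6088 CPM (median 857) in high and 1183 to 17832 CPM (median 5118) in low cells, and so did Vim, at 170 CPM in high and 1128 CPM in low cells. Their part in these differences was not tested. The G2/M sum per cell had a median of 998 CPM in high and 4313 CPM in low cells, with overlapping ranges of 64.2 to 9811 and 72.8 to 12799 CPM.

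**Figure D5:**
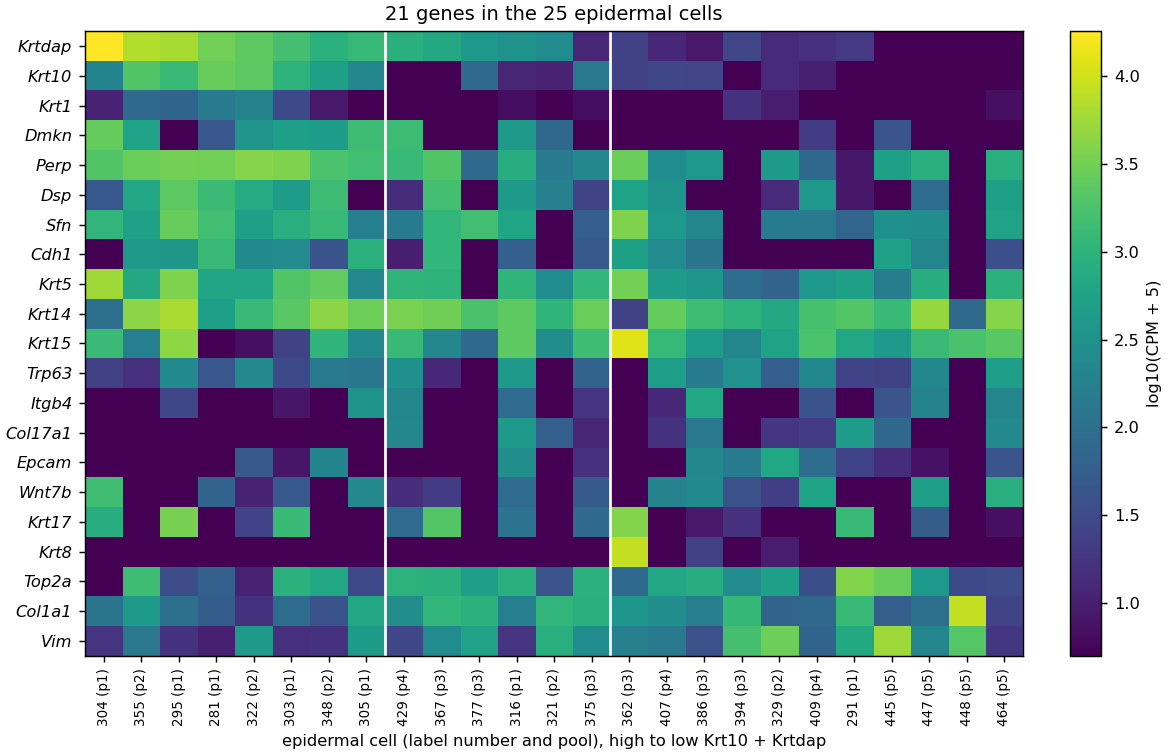
Level of 21 genes (log10 of CPM + 5) in the 25 epidermal cells, in columns named by label number and pool and ordered from high to low summed Krt10 and Krtdap; white lines separate the 8 high, 6 middle and 11 low cells. Perp is present in each high cell, Col17a1 is dark in all 8 of them, Krt14 crosses both ranges, and Krt8 is bright in cell 362 alone.

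At the earlier stages, 4 of 158 E12.5 cells (2.53%, interval 0.69 to 6.35%) and 0 of 119 E10.5 cells, which allows up to 2.52% by 3 cells and 3.05% by the exact interval, reached the keratin limit. The E12.5 cells (128, 144, 175 and 278) had 739 to 1950 CPM of Krt14, 64.2 to 320 CPM of Trp63 and 0 CPM of Krtdap. Krt10 stood at 123 CPM in cell 175 and at 0 CPM in cells 128, 144 and 278. Cell 278 also held 766 CPM of Ttn and 473 CPM of Actc1. Stage and library cannot be told apart here.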

How the data were processed

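Single-cell libraries were made on a Fluidigm C1 chip with Nextera XT, per the labels' protocols. The values are raw counts per gene deposited by the authors; Bowtie2, featureCounts and mm10 are named in the submitters' processing notes, while versions, annotation, strand and whether molecules or reads were counted were not given in the sources used here. The table has 22738 entries for 22092 symbols; identical repeats of a symbol were kept once and others summed. The other 1120 samples were not analysed here. Where reads are not unique molecules, intervals cover counting error only.

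Cells were grouped by the stated rule, with 200 of 200 E15.5 cells kept. No doublet caller was run and no doublets were removed. The sums used Python 3.11.15, pandas 2.3.3 and scipy 1.17.1; TMM factors came from edgeR 4.0.16 in R 4.3.3. Genes needed a count in at least 10 E15.5 cells, or in 5 epidermal cells for the split. No test was run, because the cells are 1 sample. The code was tested on simulated data. Coordinates are from GENCODE on GRCm38, the build of the deposited data.

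Named genes were the 15 largest called ratios in each direction with at least 50 CPM and counts in at least 40% of cells of the higher group, up to 4 called genes of each list, each way, at 20 CPM or more, and 12 keratinocyte, adhesion and mesenchymal genes in any case, of which 11 passed the filter. Within epidermal cells they were the 10 largest in each direction, with counts in at least 50% of cells. Promoters on chromosome 18 were not searched for motifs. Ribosomal protein and predicted genes were left out; further list members are named to show a list's spread. Some genes that the rule names are not reported here. The members and the 23 gene lists were chosen with earlier results of these data known. The 3 dermal-high cells were left out as an alternative chosen after seeing the data.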

Additional observations from a re-analysis of the deposited data

Results flagged for a closer look

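Among the 18 cells between the limits, which entered no comparison, 4 had more summed Krt10 and Krtdap than any of the 157 other cells, whose highest value was 1493 CPM. Cell 428 (pool 4) had 14446 CPM, cell 395 (pool 3) had 11857 CPM, cell 430 (pool 4) had 2920 CPM and cell 372 (pool 3) had 2039 CPM. Their summed Krt5, Krt14 and Krt15 levels were 312, 326, 115 and 820 CPM in the same order. Cells 428 and 395 also had 3439 and 4449 CPM of Perp and 2387 and 2621 CPM of Dsp, above every epidermal cell for Dsp. High levels of both suprabasal genes were thus present in pools 3 and 4 in cells that the keratin limit left out. No difference was tested here.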

How the results depend on the processing

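Each alternative changed 1 choice. Of the 63 genes named in the epidermal comparison, no called gene changed direction in any alternative that compared it. A change of direction was not scored for the named genes that were not called, such as Krt8 and Vim. The cause of the shifts below was not tested. With a pseudocount of 1 CPM, 1283 genes were called lower. With 20 CPM, 42 genes were called higher and 85 lower, list counts called were 4 basal, 0 suprabasal, 1 transcription factor, 1 signal and 1 endothelial, list counts past the fold were 5 basal, 6 suprabasal and 3 transcription factors, and within epidermal cells 2.84% of genes (239) were higher and 3.84% (323) lower, against 8.88% (747) and 12.9% (1089). Taking epidermal cells from 2000 CPM gave 924 genes called lower and 2 suprabasal genes called. Against all cells outside, 0 suprabasal, 2 adhesion and 1 signalling gene were called, the lost calls including Esrp1, Grhl2, Serpinb5, Stfa3 and Wnt7b, and with other cells under 20 CPM 0 endothelial genes. Without a gene filter 1174 genes were higher in high cells, and a split at the median gave 7.52% lower and turned Sostdc1 to 0.33.

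Leaving out each pool gave 82 to 103 genes called higher, 648 to 921 lower, 1 to 3 suprabasal, 1 to 3 signalling and 4 to 7 endothelial genes called, and, within epidermal cells, 8.41 to 12.3% higher and 11.6 to 25.3% lower. No paired analysis was possible because all E15.5 cells are 1 sample and no test was run. Among 80 genes called higher, 69 remained called when each cell weighed the same and 60 against all cells outside. With 25 epidermal cells, genes seen in few cells have levels set by 1 or 2 cells.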
